A study of Rattus norvegicus with 17 samples.

Results

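The genes described here code for 6 subunits of ionotropic glutamate receptors, for the alpha subunit of calcium/calmodulin-dependent protein kinase II and for a scaffold protein of the postsynaptic density. They were 8 of the 26402 genes in the deposited table, and they were taken by their Ensembl identifiers. Grin1 (ENSRNOG00000011726), Grin2a (ENSRNOG00000033942) and Grin2b (ENSRNOG00000008766) code for NMDA receptor subunits. Gria1 (ENSRNOG00000045816), Gria3 (ENSRNOG00000007682) and Gria4 (ENSRNOG00000006957) code for AMPA receptor subunits. Camk2a (ENSRNOG00000018712) codes for the kinase and Dlg4 (ENSRNOG00000018526) for the scaffold. The rule that lists them uses no measured value, although earlier results of these data were known when it was written. The pairing of symbol and identifier was supplied with the list, because the table holds identifiers without gene names, and for the same reason the dissected tissue could not be checked against marker genes.

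RNA was sequenced from dissected CA1/CA2 tissue (left hippocampus) of male, virgin Fisher-344 rats (Fischer-344 in the text of the study) aged 12 months. The sample labels name 10 rats that received vehicle, which was polyethylene glycol, and 7 rats that received ENZ (enzastaurin, an inhibitor of protein kinase C with selectivity for the beta form) suspended in polyethylene glycol. ENZ was given at 25 mg/kg in daily subcutaneous injections for 3 days during water maze testing, and all rats, vehicle rats included, were tested in the maze and killed after its last trial. Each library came from 1 rat, and the dissection left out the dentate gyrus. Rat names follow the labels, in which G1 stands for vehicle and G2 for ENZ.

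NMDA receptors are glutamate-gated channels that pass calcium when the postsynaptic cell is already depolarized. Each holds the obligatory subunit coded by Grin1 together with other subunits, most often those of Grin2a and Grin2b, and the balance between the latter shifts from Grin2b toward Grin2a as the forebrain matures. Calcium that enters through them activates the kinase coded by Camk2a, which acts on AMPA receptors, the channels that carry most fast excitatory transmission, while the Dlg4 protein holds receptors and signalling enzymes together beneath the membrane. Hippocampal CA1 is the classical site for studies of long-term potentiation through this pathway.

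Promoter sequences are shown for Dlg4, whose level moved from rat to rat with those of Camk2a and Gria3, and for Grin1, whose level did so with no other gene of the list over the 16 rats analysed first, after correction for multiple tests and without removal of principal components. RefSeq promoters of the GRCr8 assembly, covering 250 bases before and 50 bases after the start of a gene, were held for 4 of the 8 genes. The coordinates below are those of GRCr8, whereas the reads were aligned to rn5, and the sequences are written 5′ to 3′ on the strand of the gene. Capitals mark every match, on either strand, to 4 promoter motifs that were searched by their exact letters and do not overlap here. The GC box was searched as GGGCGG. The CCAAT box was searched by the letters of its name. The TATA box was searched as TATAAA. The core of the cyclic AMP response element was searched as TGACG.
Grin1, chr3:28528705-28529004, minus strand: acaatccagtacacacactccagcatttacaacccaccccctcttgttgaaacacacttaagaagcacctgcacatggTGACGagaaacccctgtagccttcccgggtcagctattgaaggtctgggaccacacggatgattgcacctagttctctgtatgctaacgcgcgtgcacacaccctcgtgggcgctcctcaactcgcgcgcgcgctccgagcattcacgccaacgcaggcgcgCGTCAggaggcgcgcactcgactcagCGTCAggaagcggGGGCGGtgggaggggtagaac
Dlg4, chr10:55239534-55239833, plus strand: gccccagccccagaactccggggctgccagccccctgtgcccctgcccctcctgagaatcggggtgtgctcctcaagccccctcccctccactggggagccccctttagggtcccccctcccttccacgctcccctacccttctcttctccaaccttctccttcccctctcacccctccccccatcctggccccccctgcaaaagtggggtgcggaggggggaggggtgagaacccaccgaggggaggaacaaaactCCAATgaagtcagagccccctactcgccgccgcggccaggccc
The Grin1 promoter held 1 GC box and 3 cores of the cyclic AMP response element, and 59.7% of its bases were G or C. The Dlg4 promoter held 1 CCAAT box and none of the other motifs, and 68.7% of its bases were G or C. Across 33469 RefSeq promoters of the same length the median was 51.7%. A GC box occurred in 33.1% of those promoters, a CCAAT box in 37.5%, a TATA box in 14.2% and a core of the response element in 21.2%. The promoters of Camk2a and Gria4 were also held and are not printed. That of Camk2a held 2 cores of the response element, a motif also found for Grin1, and none of the other motifs. That of Gria4 held 1 CCAAT box and none of the other motifs, as did that of Dlg4. These matches describe the letters only, and a relation of motifs to co-variation was not tested.

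The deposited values are normalized counts, that is, reads per gene divided by 1 size factor per rat. Whole reads could be recovered from them, and they totalled 33422 in vehicle rat G1_80 and between 2716777 and 20731523 in the other 16 rats. A single read in rat G1_80 equalled 103 normalized counts, so results are given first for the other 16 rats (9 vehicle and 7 ENZ) and then with rat G1_80 included. Among the 16, vehicle rat G1_44 lay farthest from the median profile (root mean square distance 0.48 on the log2 scale, against 0.18 to 0.40 in the others), and 128 genes with at least 10 reads were over 5-fold higher in it than in every other of the 16 rats. The closest libraries, rats G1_134 and G2_161, differed by more than sampling noise (chi-square divided by its degrees of freedom, 1.79). Normalized counts are not divided by gene length, so levels are compared between rats and not between genes. In tissue of this kind, fewer cells that express a gene and less RNA per cell cannot be told apart.

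None of the 8 genes passed the test between ENZ and vehicle, and the groups overlapped for all of them. In the limma fit over the 16 rats, 0 of 13853 genes passed an adjusted p of 0.05 (0%), and DESeq2 and edgeR on the recovered reads also called 0. At an unadjusted p under 0.05 limma counted 324 genes (2.34% of those tested), DESeq2 309 (1.49%) and edgeR 315 (2.35%). None of the 8 genes was among the 324. All 8 genes passed the filter on low values, and their adjusted p-values by limma were all 0.99979. Of the 8 log2 fold changes, 3 were above 0 and 5 below. The estimates lay between -0.15 and 0.06, and the median over all genes tested was -0.0043.

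Grin1, the obligatory NMDA receptor subunit, ranged from 2892 to 3832 normalized counts in vehicle rats (median 3338) and from 3107 to 3960 in ENZ rats (median 3534). The ENZ range lay almost within the vehicle range, with rat G1_89 lowest and rat G2_26 highest of all. The log2 fold change, ENZ over vehicle, was 0.06 ± 0.066 (SE), and its 95% interval of 0.948-fold to 1.15-fold included no change (two-sided exact permutation test over 11440 splits of the rats, p = 0.355).

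Grin2a, which codes for the subunit that gains weight in the mature forebrain, ranged from 587 to 1113 normalized counts under vehicle (median 773) and from 646 to 939 under ENZ (median 727). All ENZ values fell inside the vehicle range, whose ends were rats G1_134 and G1_53. Its log2 fold change was -0.09 ± 0.12 (SE), with an interval from 0.790-fold to 1.12-fold (exact permutation test, p = 0.524).

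Grin2b, which codes for the subunit that prevails early in development, had the largest estimate of the 8. Its level ran from 264 to 476 normalized counts in vehicle rats (median 370) and from 267 to 407 in ENZ rats (median 337), so the ENZ values again fell inside the vehicle range. The same 2 rats formed the ends as for Grin2a, with G1_134 lowest and G1_53 highest. The log2 fold change of -0.15 ± 0.115 (SE) had an interval from 0.764-fold to 1.07-fold (exact permutation test, p = 0.271). A set of 13 rats (6 vehicle and 7 ENZ), taken as those of the study's list of top genes, left out G1_134, G1_44, G1_80 and G1_8. The study itself states that 2 outlying samples were removed and gives 7 rats per group, which this set does not match. Over the 13 rats the estimate was -0.23, the lower bound 0.714-fold and the exact permutation p 0.112. With rat G1_80 added to the 16 the lower bound was 0.526-fold.

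Among the AMPA receptor subunits, Gria1 codes for a subunit that is abundant in hippocampal pyramidal cells and is a substrate of the kinase. It ranged from 2005 to 2792 normalized counts under vehicle (median 2394) and from 2082 to 2626 under ENZ (median 2363), with rat G1_98 lowest and rat G1_53 highest. The ENZ values lay inside the vehicle range, and the log2 fold change was -0.03 ± 0.068 (SE; 0.888-fold to 1.08-fold; exact permutation test, p = 0.665).

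Gria3, another AMPA receptor subunit, ranged from 1126 to 1577 normalized counts in vehicle rats (median 1363) and from 1096 to 1543 in ENZ rats (median 1430). Only rat G2_125 lay below the vehicle range. The ENZ median was higher while the difference of mean log2 values was 0.0031 ± 0.078 (SE; 0.895-fold to 1.12-fold; exact permutation test, p = 0.972), and the sign of that estimate turned in 8 of the 16 fits that left out 1 rat.

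Gria4, a subunit best known from interneurons and early development, ranged from 270 to 327 normalized counts under vehicle (median 289) and from 251 to 324 under ENZ (median 284). Rat G2_62 was lowest and rat G1_134 highest, and the groups overlapped over most of their ranges. The log2 fold change was -0.04 ± 0.059 (SE; 0.893-fold to 1.06-fold; exact permutation test, p = 0.482).

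Camk2a, the kinase subunit that dominates in forebrain excitatory neurons, ranged from 10120 to 14230 normalized counts in vehicle rats (median 12267) and from 9507 to 14402 in ENZ rats (median 11947). Both the lowest and the highest rat, G2_125 and G2_26, belonged to the ENZ group, whose range enclosed that of the vehicle group. The difference of mean log2 values was 0.0029 ± 0.087 (SE), with an interval from 0.883-fold to 1.14-fold (exact permutation test, p = 0.973).

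Dlg4, the scaffold, ranged from 4658 to 5381 normalized counts under vehicle (median 4955) and from 3814 to 6118 under ENZ (median 5037). The same ENZ rats, G2_125 and G2_26, formed the ends, and every vehicle rat lay between them. The log2 fold change was -0.01 ± 0.073 (SE; 0.890-fold to 1.10-fold; exact permutation test, p = 0.837). The coefficient of variation was 4.61% in vehicle rats and 14.2% in ENZ rats, and with rat G1_80 that of the vehicle group was 22.3%, so the order of the groups turned with this 1 rat. The difference was not tested.

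**Figure D1:**
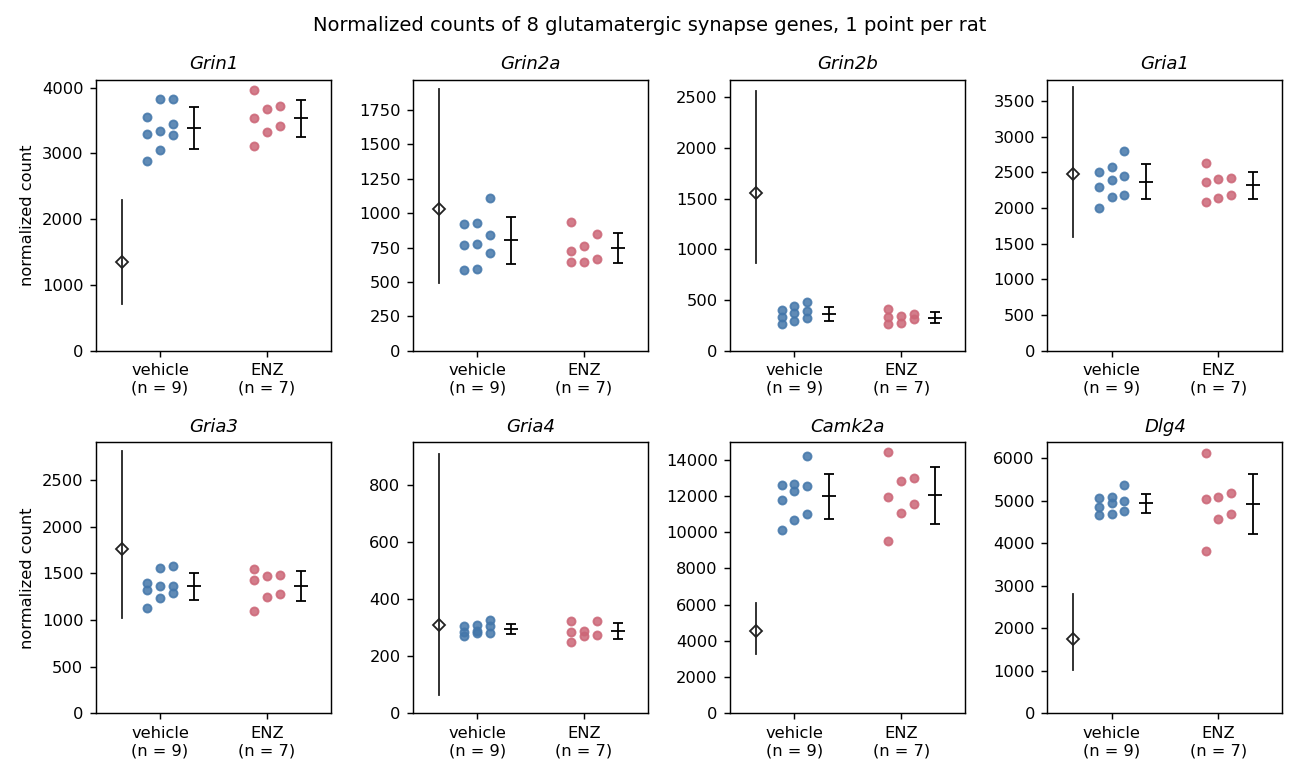
Normalized counts (vertical axis, linear and starting at 0) of the 8 genes in vehicle (blue, n = 9) and ENZ rats (red, n = 7), 1 point per rat, with bars for the mean ± SD of each group and, as an open diamond with its exact 95% Poisson interval, vehicle rat G1_80, which is not in the bars. The blue and red points overlap in every panel. At its deposited size factor, the interval of rat G1_80 lies clear of all of them for Grin1, Grin2b, Camk2a and Dlg4.

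The genes differed in how much their levels varied among rats and in how much of that variation counting error gave. Over the 16 rats the coefficient of variation was 18.6% for Grin2a and 18.02% for Grin2b, above the median of 13.8% over all genes tested, and lower than that median for the other 6 genes. Grin1 varied by 8.73%, Gria1 by 9.20%, Dlg4 by 9.58%, Gria3 by 10.8% and Camk2a by 11.2%. Gria4 varied least, at 7.50%, and counting error alone gave 52.3% of that variance, as against 0.553% for Camk2a and at most 7.21% for the other genes. The Gria4 levels of single rats therefore say less about differences between animals than those of the other genes.

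**Figure D2:**
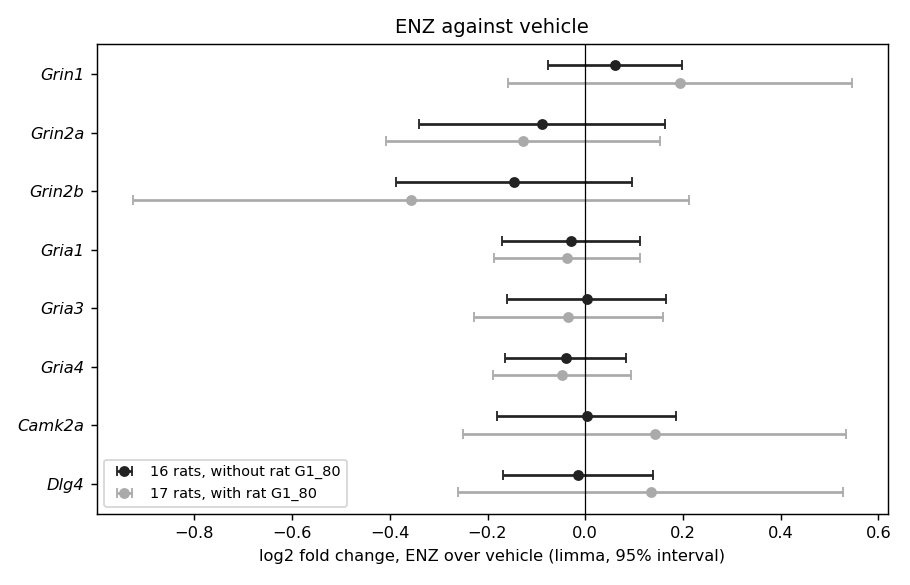
Log2 fold change of each gene, ENZ over vehicle, with its 95% interval by limma, without (black, 16 rats) and with vehicle rat G1_80 (grey, 17 rats). All 16 intervals include 0, and those of Grin1, Grin2b, Camk2a and Dlg4 widen most when the rat is added.

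Including rat G1_80 moved the estimates and called none of the 8 genes. Over 17 rats limma again called 0 of 13844 genes (0%) and counted 38 at an unadjusted p under 0.05 (0.274%), none of them among the 8, while DESeq2 called 5 genes and edgeR 0. Across all genes the median log2 fold change moved to 0.16 in the limma fit. A gene at 0 is low relative to that median. By DESeq2 and edgeR on the recovered reads of the 17 rats, the median was -0.024 and 0.0013. Values relative to the median therefore belong to the limma fit on log2(normalized count + 1) only. Reads fell on 8185 genes in rat G1_80 and on at least 15900 in the others. The part of genes without reads in this shift was not tested. The log2 fold change of Grin1 was 0.19, that of Camk2a 0.14 and that of Dlg4 0.13, and relative to the median these are 0.03, -0.02 and -0.03. Grin2b stood at -0.36 ± 0.269 (SE), or -0.52 relative to the median, and the remaining 4 genes lay between -0.13 and -0.03, or between -0.29 and -0.19 relative to the median. Exact permutation p-values over 19448 splits were between 0.226 and 0.705 for the 8 genes.

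The levels in rat G1_80 itself rested on few reads. Grin2b had 15 reads there, which is 1550 normalized counts (exact 95% Poisson interval 868 to 2557) and 4.58 times the median of the other 16 rats. At that median, 3.28 reads would have been expected. Grin1 had 13 reads (1344 normalized counts, 715 to 2298), Camk2a 44 (4548, 3304 to 6105) and Dlg4 17 (1757, 1024 to 2813), and these 3 genes were lower in it than in any other rat, at 0.391, 0.376 and 0.354 times the median. Grin2a (10 reads), Gria1 (24 reads), Gria3 (17 reads) and Gria4 (3 reads) had intervals that overlapped the range of the other rats. The intervals cover counting error only and take the size factor of rat G1_80 as given. The part of the low depth and of the size factor in these 4 departures was not tested.

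Ratios of 2 genes within a rat do not depend on its size factor. To ask whether the balance of RNA between genes differed with ENZ, 7 ratios were compared. Gria2, a further AMPA receptor subunit gene, was not on the list, and protein was not measured. The ratios therefore do not give receptor composition. Grin2a/Grin2b, the ratio that rises with maturation of NMDA receptors, ran from 2.04 to 2.35 in vehicle rats (median 2.16) and from 1.79 to 2.78 in ENZ rats (median 2.41). The ENZ ratios spread to both sides of the vehicle ratios, with an SD of 0.21 against 0.076 on the log2 scale. With rat G1_80 the vehicle SD was 0.55, above that of the ENZ group, and the difference in spread was not tested. The ratio differed by 0.06 on the log2 scale (0.931-fold to 1.16-fold; exact permutation test, p = 0.459, Benjamini-Hochberg adjusted p = 0.879 over the 7 ratios). The difference was 0.23 with rat G1_80 (exact permutation p = 0.384, adjusted p = 0.895), and it ran from 0.010 without rat G2_62 to 0.12 without rat G2_125.

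Relative to the obligatory subunit, both Grin2 genes gave lower estimates under ENZ without passing the test. Grin2b/Grin1 ran from 0.0794 to 0.128 in vehicle rats (median 0.112) and from 0.0685 to 0.115 in ENZ rats (median 0.0970), with a log2 change of -0.21 (0.718-fold to 1.04-fold; exact permutation p = 0.121, adjusted p = 0.846). Grin2a/Grin1 changed by -0.15 (0.746-fold to 1.09-fold; exact permutation p = 0.252, adjusted p = 0.879). The groups overlapped for both ratios. The Grin2b/Grin1 estimate depended on the rats included, in both groups. Without rat G2_26 it was -0.14 (exact permutation p = 0.266, adjusted p = 0.956), and without rat G2_116 it was -0.26 (exact permutation p = 0.0607, adjusted p = 0.425). Without rat G1_134, which had the lowest Grin2b level, it was -0.26 (exact permutation p = 0.0444, adjusted p = 0.311). Over the 13 rats it was -0.32 (0.668-fold to 0.960-fold; exact permutation p = 0.0204, adjusted p = 0.143). The rats left out of the 13 were all vehicle rats. Besides G1_80 they included G1_134 and G1_8, with the lowest vehicle ratios (0.0794 and 0.0854), and leaving these out lowers the estimate. With rat G1_80 it was -0.55 (exact permutation p = 0.186, adjusted p = 0.685).

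The AMPA receptor ratios and the ratio of kinase to scaffold were closer to no change. Gria1/Gria3 changed by -0.03 on the log2 scale (0.881-fold to 1.08-fold; exact permutation p = 0.641), Gria1/Gria4 by 0.010 (0.881-fold to 1.15-fold; p = 0.913) and Gria3/Gria4 by 0.04 (0.875-fold to 1.21-fold; p = 0.703). Camk2a/Dlg4 ran from 2.15 to 2.64 in vehicle rats and from 2.19 to 2.83 in ENZ rats, a change of 0.02 with the narrowest interval of the 7 ratios (0.933-fold to 1.10-fold; exact permutation p = 0.754). Adjusted p-values of these 4 ratios were 0.879 or 0.913. In rat G1_80 Camk2a/Dlg4 was 2.59, inside the range of the other rats, although both genes were low there, whereas Grin2a/Grin2b was 0.667 and Grin2b/Grin1 was 1.15.

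**Figure D3:**
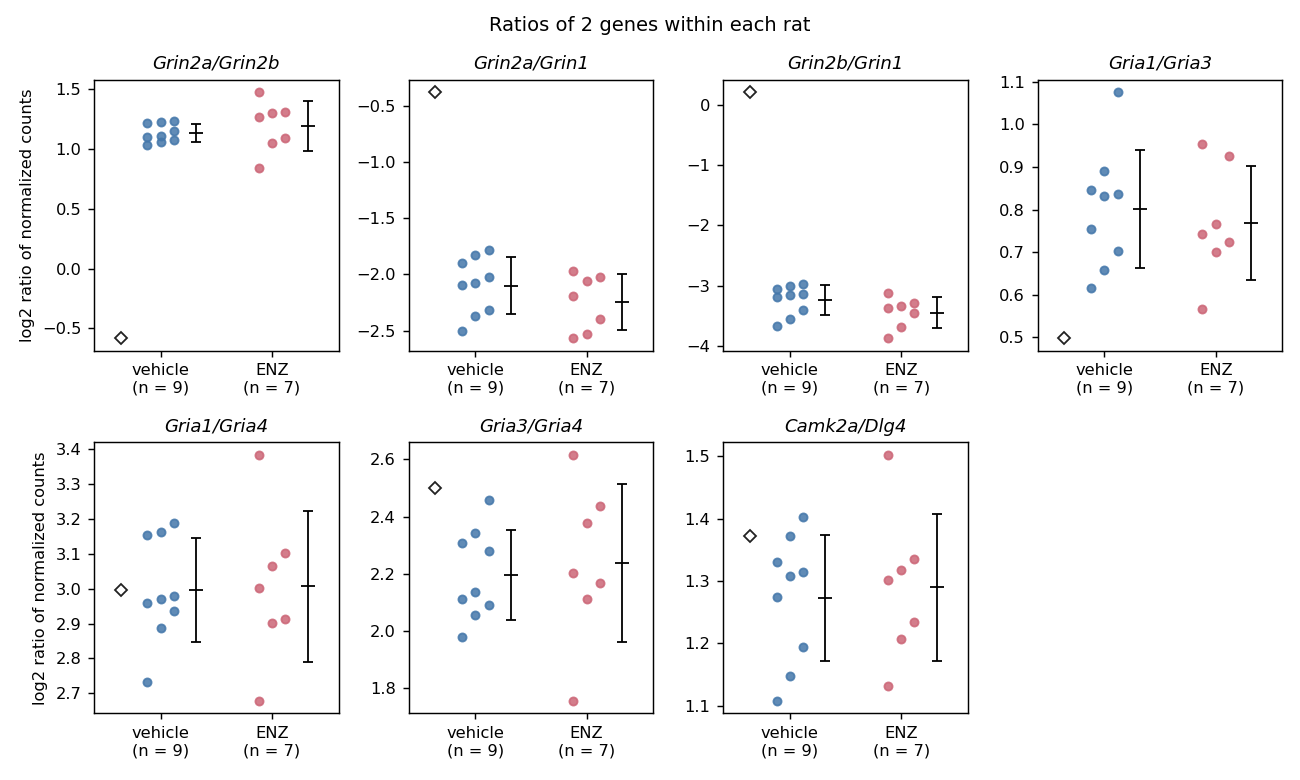
Log2 ratio of normalized counts of 2 genes in each rat (vertical axis, scaled separately in each panel) for vehicle (blue, n = 9) and ENZ (red, n = 7), with bars for the mean ± SD and an open diamond for vehicle rat G1_80, which is not in the bars. The groups overlap in all 7 panels, and the diamond stands far from the points in the 3 ratios of NMDA receptor genes.

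Co-variation was examined over all 28 pairs of the 8 genes, on log2 normalized counts over the 16 rats. After Benjamini-Hochberg adjustment over the pairs, 4 passed 0.05 by permutation (100000 resamples). The median r of the 28 pairs was 0.18, and 20 pairs were positive. With all 13852 other genes, the median r of each of the 8 genes lay between -0.031 and -0.010. An r of at least 0.8 was reached by 2 of the 28 pairs and, gene by gene, by 0.043% to 0.563% of the other genes. The share of all gene pairs that would pass the test was not computed. The strongest pair joined a subunit of each receptor family.

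Grin2a and Gria1 varied together most closely (Pearson r = 0.889, p = 2.00e-05, adjusted p = 0.00056; Spearman rho = 0.871, adjusted p = 0.00098). The correlation was 0.906 among vehicle rats and 0.853 among ENZ rats, and it was 0.856 without the 2 rats farthest from the Grin2a median. Of 13852 other genes tested, Gria1 had the 2nd highest correlation with Grin2a, and Grin2a had the 4th highest with Gria1. The gene most like both of them was the same one, ENSRNOG00000029610, with r = 0.911 to Grin2a and 0.934 to Gria1, and no name was paired with it here.

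Grin2a and Grin2b came next (r = 0.839, p = 0.00011, adjusted p = 0.00154; rho = 0.794, adjusted p = 0.0042). Among the 9 vehicle rats r was 0.970, and among the 7 ENZ rats it was 0.517. The difference between those values was not tested. Without the 2 rats farthest from the Grin2a median, G1_134 and G1_53, r over the rest was 0.737. Grin2b ranked 7th among the genes most like Grin2a, and Grin2a 4th among those most like Grin2b. Grin2b and Gria1 (r = 0.604, adjusted p = 0.073) and Gria1 and Gria3 (r = 0.593, adjusted p = 0.073) did not pass. Under TMM normalization both passed (adjusted p = 0.0484 for each), as they did with 3 principal components removed, and leaving out single rats brought the first past the threshold in 3 of 16 fits and the second in 2.

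Camk2a and Dlg4 were also correlated (r = 0.771, p = 0.00046, adjusted p = 0.00429), with r = 0.848 among vehicle rats and 0.829 among ENZ rats. By rank the relation was weaker and did not pass (rho = 0.624, adjusted p = 0.0762). It was reduced to r = 0.517 without rats G2_125 and G2_26, the lowest and highest for both genes. Dlg4 ranked 25th among the genes most like Camk2a, and Camk2a 117th among those most like Dlg4.

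Gria3 and Dlg4 made the last pair (r = 0.714, p = 0.00116, adjusted p = 0.00812; rho = 0.838, adjusted p = 0.00098), with r = 0.749 among vehicle rats and 0.804 among ENZ rats. Leaving out rat G2_125, which was lowest for both genes, gave r = 0.579 (adjusted p = 0.0998), and leaving out rat G2_26 gave 0.802. Without both G2_125 and G2_26, the rats farthest from the Dlg4 median, r was 0.785. Without G1_98 and G2_125, the rats farthest from the Gria3 median, it was 0.634. Removing 3 principal components of the whole table gave r = 0.194 (adjusted p = 0.564). Gria3 and Dlg4 ranked 228th and 151st for each other. Dlg4 had the most neighbours at an r of at least 0.8, with 78 of 13852 genes (0.563%). The other 7 genes had 6 to 43 such neighbours (0.043% to 0.310%). The part of rats G2_125 and G2_26, the ends of the Dlg4 range, in its count was not tested. The highest r of all was that of ENSRNOG00000016145, at 0.967 to Dlg4.

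**Figure D4:**
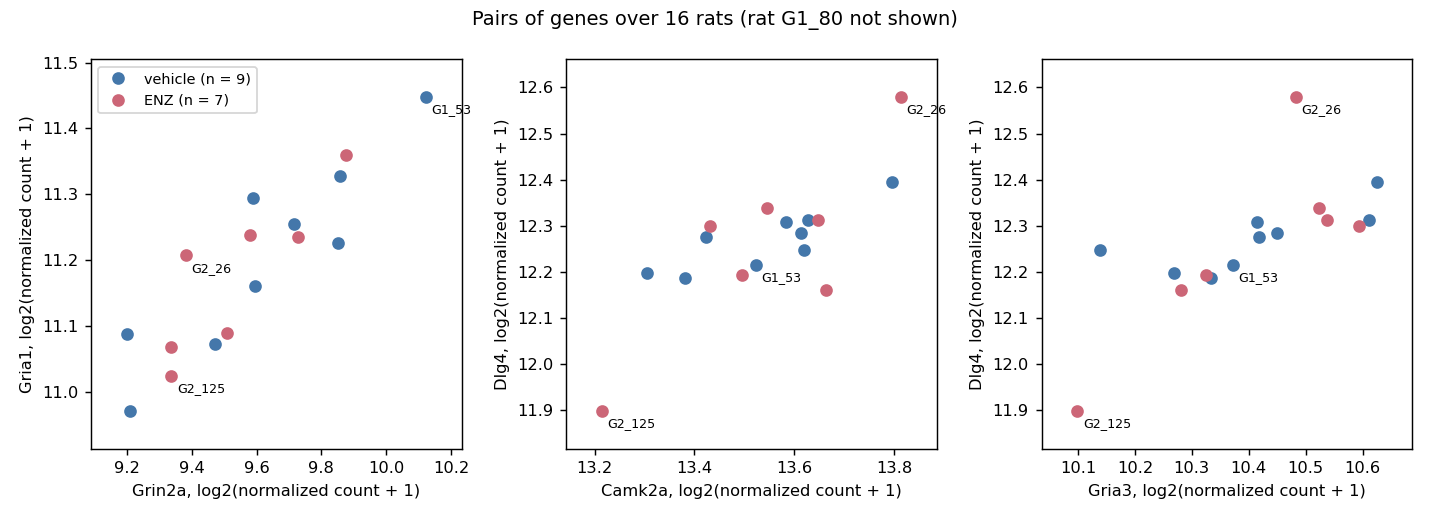
Log2(normalized count + 1) of 1 gene against another in 16 rats (blue, vehicle, n = 9; red, ENZ, n = 7) for Grin2a and Gria1, Camk2a and Dlg4, and Gria3 and Dlg4, with 3 rats named. Both groups follow the Grin2a and Gria1 relation, while rats G2_125 and G2_26 stand at the ends of the Dlg4 axis.

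Grin1 and Gria4 were in none of the 4 pairs that passed. The highest correlation of Grin1 with another of the 8 genes was that with Gria1 (r = 0.526, adjusted p = 0.122), at 0.841 among vehicle rats and 0.062 among ENZ rats, a difference that was not tested. Without rat G2_125 that pair passed (r = 0.664, adjusted p = 0.0401). The correlation of Grin1 with Dlg4 was 0.012. With 3 principal components removed, Grin1 passed both with Gria1 (r = 0.658, adjusted p = 0.0230) and with Dlg4 (r = 0.656, adjusted p = 0.0282), in a setting whose p-values are approximate because the residuals have fewer degrees of freedom. Gria4 passed with no gene under any setting run. The lowest r of all pairs was between Gria4 and Dlg4 (-0.457). The correlation of a gene with log10 reads per rat lay between -0.301 for Gria4 and 0.350 for Grin2b over the 16 rats, and the part of depth in the pairs was not tested.

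Including rat G1_80 changed the pattern of correlations. With it, 12 of 28 pairs were positive, against 19 to 22 when a single rat of the 16 was left out, and Grin1 with Dlg4 went from 0.012 to 0.878, Grin1 with Grin2b from 0.206 to -0.816, and Gria3 with Dlg4 from 0.714 to -0.261. Camk2a with Dlg4 reached 0.963. Grin2a with Gria1 was nearly as before, at 0.872. Leaving out single rats from the 16 gave 4 to 6 pairs past the threshold, and in each of those fits Grin2a with Gria1 was between 0.845 and 0.915.

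**Figure D5:**
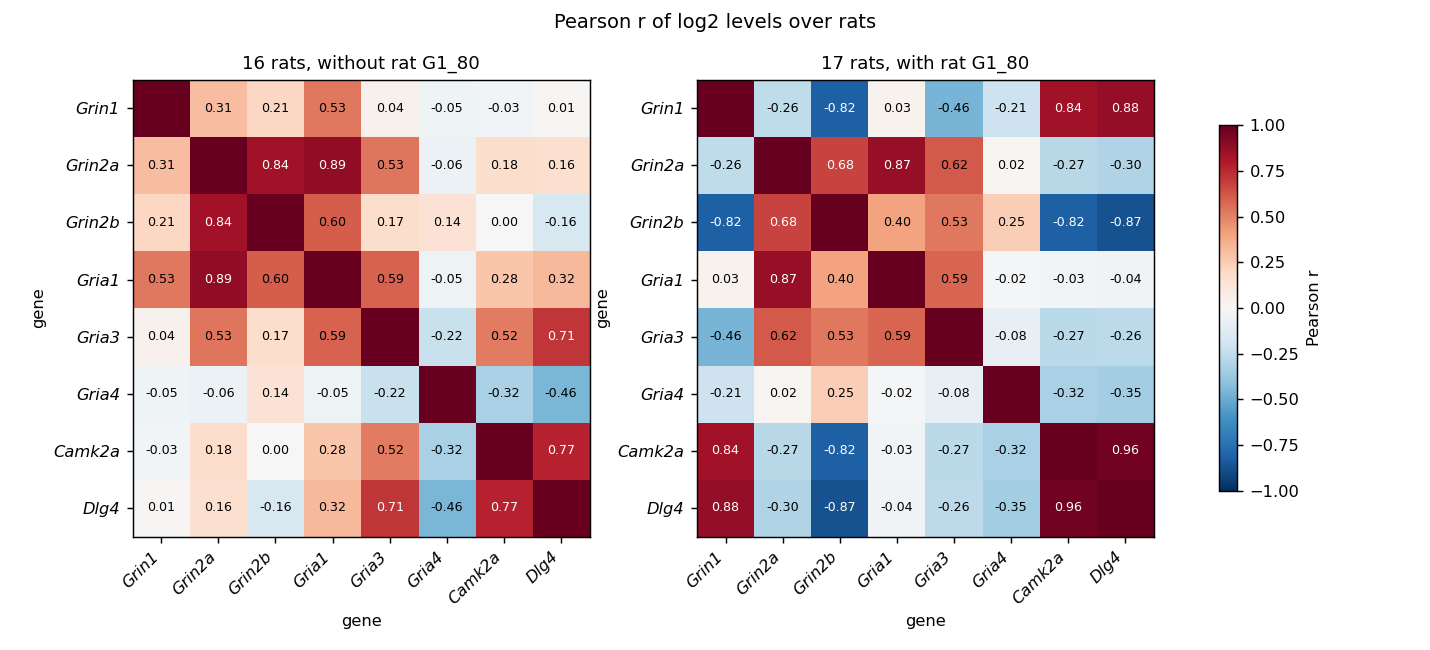
Pearson r of log2 normalized counts for all pairs of the 8 genes over 16 rats (left) and with vehicle rat G1_80 added (right), on a colour scale from -1 (blue) to 1 (red). On the right the rows of Grin1, Camk2a and Dlg4 turn red with one another and blue with Grin2b, while the value for Grin2a and Gria1 changes little, from 0.889 to 0.872.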

How the data were processed

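RNA of the CA1/CA2 region was sequenced after TruSeq library preparation in 17 rats. After trimming, the authors aligned reads to rn5 by STAR (2.4.0a), counted reads on genes by featureCounts (1.4.4) and normalized by DESeq2, per the labels and the methods of the study. The deposited signal is these normalized counts, with every rat scaled by a single factor. Which annotation release and which strand setting were used is not given in the sources used here, and the kit as named does not mark strand, so antisense reads cannot be told apart. Values were whole multiples of 1 read in 100% of cases in every rat (tolerance 0.01). Recovered reads totalled 33422 in rat G1_80 and at least 2716777 in the others. No column lacked a sample (0).

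ENZ and vehicle were compared by limma (3.58.1, R 4.3.3) with trended variances, on log2(normalized count + 1) and without covariates, over genes with a median of at least 5, with Benjamini-Hochberg adjustment over all of them. The added 1 slightly understates the changes of low genes. Two-sided exact permutation tests over rats were run for each gene and ratio in Python 3.11.15 (numpy 2.4.6, scipy 1.17.1), and intervals of ratios were obtained by inverting that test. Correlations were tested with 100000 permutations and, within groups, exactly. The limma step was tested on simulated data. Alternatives were pseudocounts of 0.1 and 5, no filter, a median of at least 50, TMM, quantile normalization, array weights, 3 principal components, DESeq2 (1.42.0) and edgeR (4.0.16) on recovered reads, all 17 rats, 13 rats and each rat left out in turn. DESeq2 and edgeR over 17 rats, and co-variation after removal of 3 components, were chosen after seeing the data.

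The named genes were the 8 members and the gene most correlated with each, of which at most 2 identifiers are printed. Members, ratios and lists were chosen with earlier results of these data known. The gene table used here (GRCr8) matched 0 of the identifiers, so lists of other synaptic genes and of cell type markers were not analysed here. The treatment text gives 1 more ENZ rat than the labels name, and that rat was not analysed here.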

Additional observations from a re-analysis of the deposited data

Results flagged for a closer look

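A test for a single distant value in each group (Dixon's, at 95%) was applied to the 8 genes and 7 ratios with and without rat G1_80, 45 combinations in all, of which chance would give 2.25. It found 7, each of them vehicle rat G1_80 among the 10 vehicle rats. This rat had already been set apart for its few reads. The combinations share rats and genes, so the 7 are not independent and their number cannot be judged against 2.25. On the log2(normalized count + 1) scale Grin1 was 10.4 in that rat and 11.5 in the next rat, Camk2a 12.2 against 13.3, Dlg4 10.8 against 12.2, and Grin2b 10.6 against 8.90. The log2 ratio Grin2a/Grin2b was -0.58 against 1.03 in the nearest rat, Grin2a/Grin1 was -0.38 against -1.78, and Grin2b/Grin1 was 0.21 against -2.97. Without rat G1_80 no gene or ratio met the criterion in either group.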

How the results depend on the processing

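No gene of the 8 was called under any alternative. Over the whole table, 625 genes (3.01% of those tested) had an unadjusted p under 0.05 without the filter. At a median of at least 50 there were 201 (2.08%), and with 3 principal components 497 (3.59%). With rat G1_80, limma counted 38 (0.274%) and DESeq2, which alone called any genes (5), counted 95 (0.454%). The limma count ran from 287 (2.07%) to 458 (3.3%) when single rats were left out. The estimates of Grin1, Grin2a, Grin2b and Gria4 kept their sign under every alternative run, while those closest to 0 changed sign: Gria3 was -0.013 with array weights, -0.035 with rat G1_80, -0.023 over 13 rats, -0.0018 by DESeq2 and -0.0049 by edgeR with rat G1_80. Camk2a was -0.015 by quantile normalization, -0.011 with array weights and -0.051 over 13 rats. Dlg4 was 0.0022 with 3 components and, with rat G1_80, 0.13 by limma, 0.046 by DESeq2 and 0.050 by edgeR. Over 13 rats Gria1/Gria4 was -0.011 and Camk2a/Dlg4 -0.013, and Grin1 with Dlg4 gave r = -0.028. Leaving out single rats gave -0.061 to 0.00055 for Gria1, -0.030 to 0.054 for Gria3, -0.042 to 0.058 for Camk2a, -0.069 to 0.045 for Dlg4, -0.064 to 0.0014 for Gria1/Gria3, -0.053 to 0.065 for Gria1/Gria4, -0.020 to 0.12 for Gria3/Gria4, -0.018 to 0.044 for Camk2a/Dlg4 and r = -0.337 to 0.258 for Grin1 with Dlg4. Pairs past the threshold numbered 8 after removal of 3 components, whose residuals have fewer degrees of freedom than the test assumes, against 4. With rat G1_80, Gria3 with Dlg4 gave r = -0.261 and Grin1 with Grin2b -0.816, and the median coefficient of variation of the 8 genes was 18.3%, against 9.29% to 10.5% when single rats of the 16 were left out. The cause of these changes was not tested. No paired or blocked analysis was made. Per the methods of the study, rats were housed in pairs and tested in squads counterbalanced for treatment. The sample labels as used here give neither squad nor cage.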
